A study of Homo sapiens with 6 samples.

Results

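The genes described here encode the TGF-beta and BMP superfamily: its ligands, receptors, SMAD transducers, antagonists and latent-binding proteins. They were taken from a list of 50 gene symbols, of which 49 were measured among the 18404 genes of the arrays, each through its brightest probe set. The remaining gene, the BMP type I receptor BMPR1A, was not analysed here. Total RNA of H69M cells was compared with total RNA of H69 cells, with 3 arrays of each line. H69 is a classic small cell lung cancer line that grows as floating clusters with neuroendocrine features, and the labels call both lines small cell lung cancer. How H69M was obtained, any treatment, and whether the 3 arrays of a line came from separate cultures are not given in the labels, so each p-value rests on the variation among arrays, part or all of which may be technical.

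TGF-beta superfamily ligands are secreted dimers that bring together type I and type II receptor kinases, which then phosphorylate SMAD proteins. TGF-beta and the activins act mainly through SMAD2 and SMAD3, and BMPs mainly through SMAD1, SMAD5 and SMAD9, while SMAD4 is the partner of both. TGF-beta is secreted in a latent complex tethered to the matrix, and its signalling is a classical inducer of epithelial to mesenchymal transition and of matrix genes. BMP signalling is held in check by secreted antagonists such as noggin, and its best known direct targets are the ID genes, which encode inhibitors of basic helix-loop-helix factors such as those of neuroendocrine cells.

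Values are log2 probe set values, and a difference of 1 on this scale is a 2-fold change. The median array value was 6.43 to 6.48, and Pearson's r across genes, which are not independent replicates, was 0.995 to 0.998 within a line and 0.938 to 0.950 between lines. By the threshold given below, 21.0% of all genes were higher and 23.2% lower in H69M. Of 11 measured neuroendocrine markers, 9 were lower in H69M. Their summed linear level was 7305 to 8620 on the H69M arrays and 12824 to 13022 on the H69 arrays. Of 11 fibroblast markers, 8 were higher in H69M and 0 lower, with a summed linear level of 7669 to 9888 in H69M and 837 to 859 in H69. The fibroblast genes DPT, TCF21 and MEOX2 did not pass, with log2 levels of 4.96, 5.43 and 5.64 in H69M and 4.96, 5.14 and 5.85 in H69. The epithelial markers had 2 of 8 genes higher and 5 lower in H69M, with a summed level of 10577 to 11590 in H69M and 8531 to 8871 in H69. The higher genes were the keratins KRT8 (12.13 in H69M, 11.21 in H69) and KRT18 (11.46 and 9.46). They were the brightest of the list in H69M and weigh most in its sum. EPCAM, KRT19, CLDN3, CLDN4 and CLDN7 were lower. Endothelial markers summed to 351 to 376 in H69M and 398 to 424 in H69, with 2 of 8 higher and 1 lower, and leukocyte markers to 343 to 353 in H69M and 331 to 344 in H69, with 1 of 7 higher and 4 lower. The arrays give no detection calls, so none of these markers has a measured zero, and where a gene is dim in one line its fold change may be a lower bound. In these bulk samples, fewer cells with an RNA and less of it per cell cannot be told apart. Whether cell makeup has a part in the results that follow was not tested.

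More superfamily genes were higher than lower in H69M. Of the 25 higher ones, 14 belonged to the TGF-beta and activin branch, which holds 22 of the 49 measured genes. Of the 49 genes, 12 were lower and 12 did not pass the threshold of 0.05 on limma's p adjusted by Benjamini-Hochberg over all genes. Over all genes, 44.2% passed that threshold, 21.0% higher and 23.2% lower in H69M. The members' shares were 75.5%, 51% and 24.5% in the same order. At least 2-fold differences were measured for 13 members higher and 3 lower in H69M, where 5.56% and 2.72% of all genes had such differences. On 28 members all H69M arrays lay above all H69 arrays, on 13 all lay below, and on 8 the lines overlapped; over all genes these shares were 25.8% above and 30.0% below. No filter on low values was applied, so no member was dropped. The median log2 fold change of the members was 0.21, beside -0.041 for all genes.

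**Figure D1:**
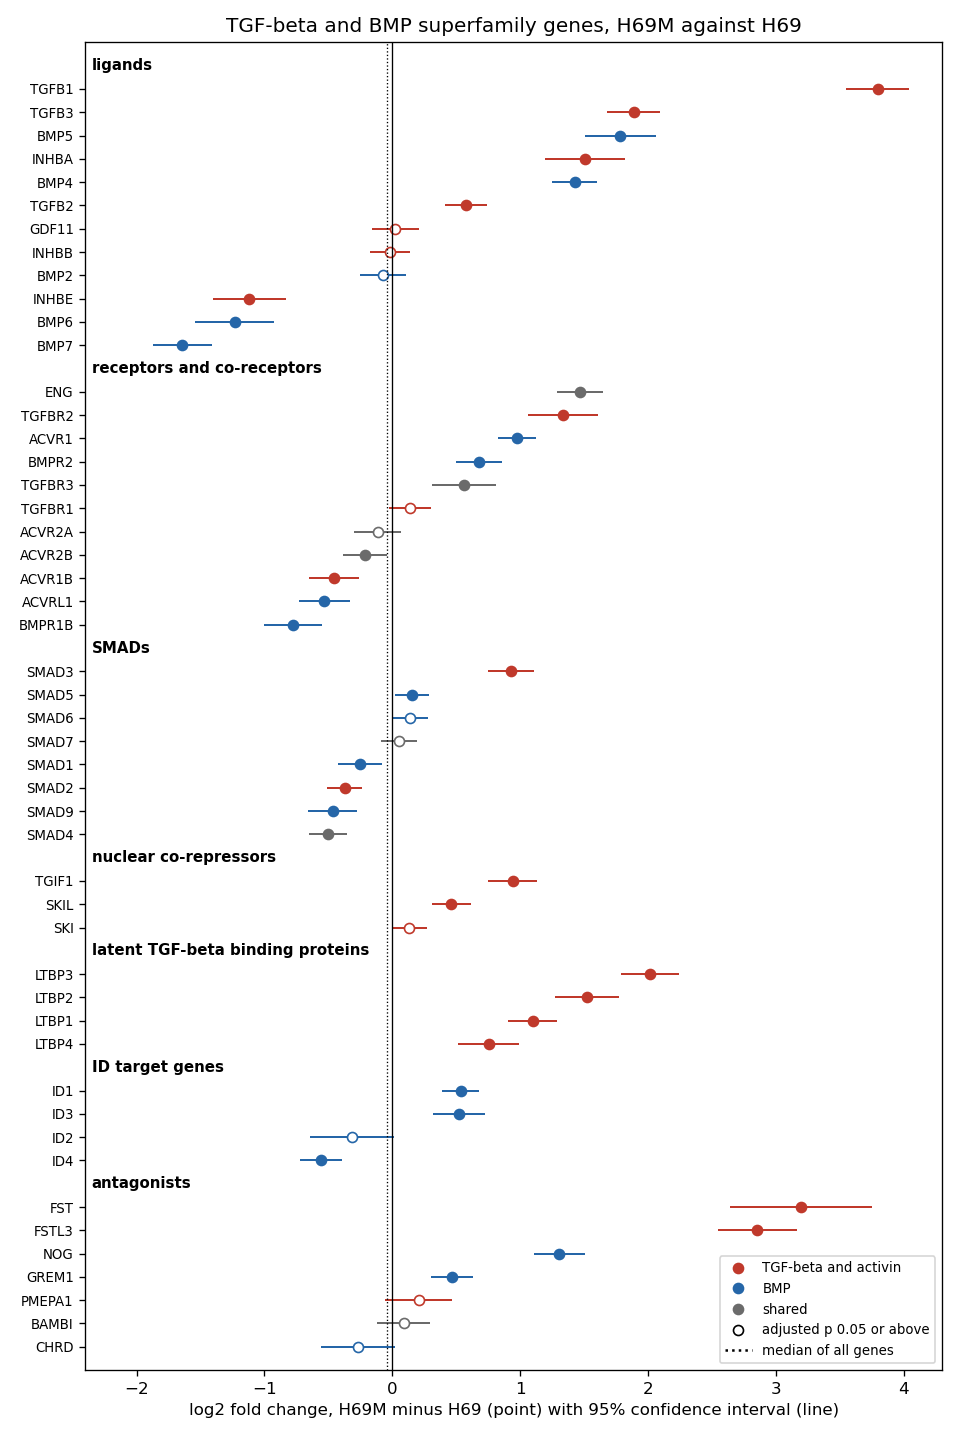
Log2 fold change (H69M minus H69, x axis) of each of the 49 measured genes with its 95% confidence interval from limma, grouped by role; filled points passed an adjusted p of 0.05, colours mark the branch and the dotted line is the median of all genes (-0.041). TGFB1, FST and FSTL3 lie farthest to the right, all 4 latent-binding proteins lie right of 0, and BMP7, BMP6 and INHBE lie farthest to the left.

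The branches were set side by side without a test, since genes of a list are not replicates. In the TGF-beta and activin branch, 14 of 22 genes were higher in H69M and 3 lower, with a median log2 fold change of 0.84 and an interquartile range from 0.13 to 1.52. In the BMP branch, 9 of 20 genes were higher and 7 lower, with a median of 0.034 and an interquartile range from -0.48 to 0.57. The 7 genes that serve both branches had 2 higher and 2 lower, with a median of 0.053. The share that passed was much alike in the 2 branches, 77.3% and 80%, beside 44.2% of all genes (21.0% higher and 23.2% lower). The difference between the branches was not tested. Restricted to ligands, receptors and receptor-regulated SMADs, a grouping chosen after the data were seen, the TGF-beta and activin branch had 6 of 12 higher and 3 lower with a median of 0.36, and the BMP branch 5 of 12 higher and 6 lower with a median of -0.16. The TGF-beta and activin genes outside that grouping are the latent-binding proteins, the co-repressors, the activin antagonists and PMEPA1.

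**Figure D2:**
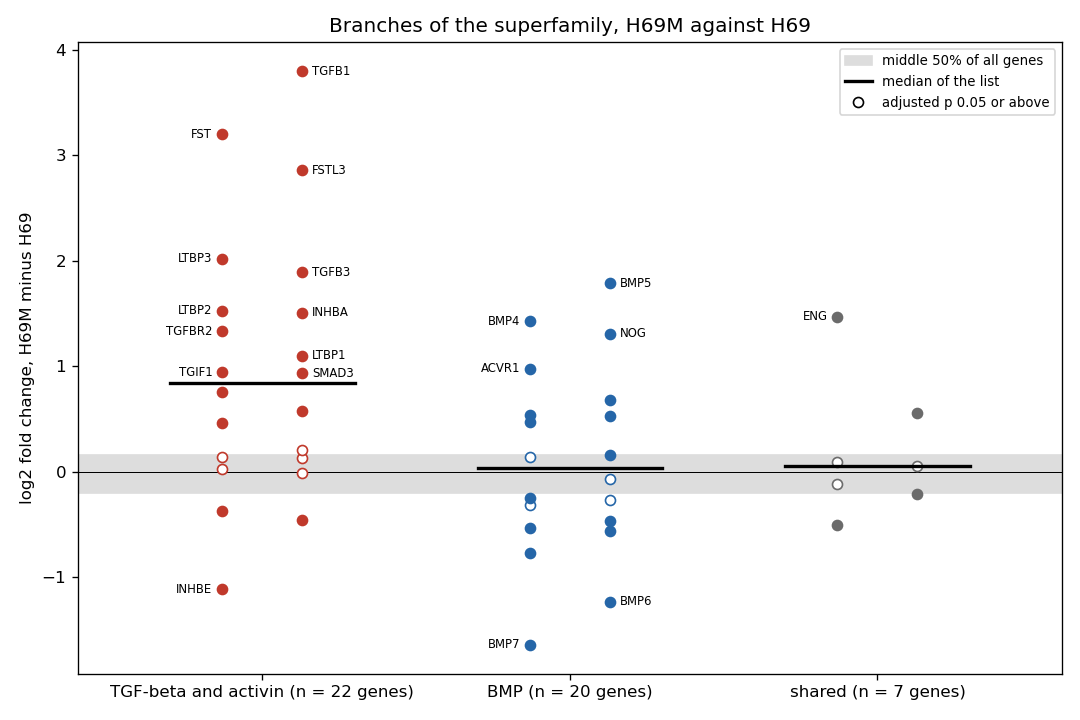
Log2 fold change (H69M minus H69, y axis) of each gene in the TGF-beta and activin branch, the BMP branch and the genes shared by both; bars are medians (0.84, 0.034 and 0.053), open points did not pass and the grey band is the interquartile range of all genes. The TGF-beta and activin genes are spread upwards to 3.80, while the BMP genes lie on both sides of 0, from -1.64 to 1.78.

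Promoter sequences are shown for the 3 members with the largest rises (TGFB1, FST and FSTL3), for BMP6, which fell, and for ID3 and ID4, relatives that moved in opposite directions. Each run is the 250 bases before the annotated start in RefSeq (build GRCh38.p14), read 5′ to 3′ on the gene's strand. Capitals mark CAGAC (or GTCTG, its reverse complement), the short box that SMAD3 and SMAD4 can bind, GGCGCC, a GC-rich element of SMADs, and TGANTCA, the AP-1 site.
TGFB1, chr19:41353923-41354172, minus strand: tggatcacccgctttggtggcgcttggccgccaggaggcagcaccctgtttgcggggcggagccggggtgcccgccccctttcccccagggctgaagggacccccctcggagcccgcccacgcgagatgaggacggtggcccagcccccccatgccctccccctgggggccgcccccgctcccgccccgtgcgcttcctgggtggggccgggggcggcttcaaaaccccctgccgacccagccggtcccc
FST, chr5:53480379-53480628, plus strand: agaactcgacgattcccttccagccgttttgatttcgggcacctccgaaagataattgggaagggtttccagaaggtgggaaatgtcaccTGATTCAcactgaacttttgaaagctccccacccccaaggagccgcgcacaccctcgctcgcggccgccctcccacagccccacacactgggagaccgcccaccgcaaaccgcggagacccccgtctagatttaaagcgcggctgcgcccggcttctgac
FSTL3, chr19:676142-676391, plus strand: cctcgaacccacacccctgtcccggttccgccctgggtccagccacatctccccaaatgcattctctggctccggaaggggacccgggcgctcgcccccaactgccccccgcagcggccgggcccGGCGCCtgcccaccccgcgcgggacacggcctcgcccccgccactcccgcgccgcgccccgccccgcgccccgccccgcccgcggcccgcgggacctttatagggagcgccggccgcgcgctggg
BMP6, chr6:7725849-7726098, plus strand: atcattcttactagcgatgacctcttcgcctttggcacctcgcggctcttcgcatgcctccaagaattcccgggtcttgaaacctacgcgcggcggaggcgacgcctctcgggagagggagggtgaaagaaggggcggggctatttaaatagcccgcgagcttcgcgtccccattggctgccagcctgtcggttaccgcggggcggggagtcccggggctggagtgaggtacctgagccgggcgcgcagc
ID3, chr1:23559502-23559751, minus strand: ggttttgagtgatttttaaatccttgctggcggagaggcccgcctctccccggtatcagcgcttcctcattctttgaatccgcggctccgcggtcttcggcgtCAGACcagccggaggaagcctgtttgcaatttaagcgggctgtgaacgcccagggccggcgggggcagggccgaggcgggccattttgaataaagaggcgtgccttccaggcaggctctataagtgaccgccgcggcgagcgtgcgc
ID4, chr6:19837120-19837369, plus strand: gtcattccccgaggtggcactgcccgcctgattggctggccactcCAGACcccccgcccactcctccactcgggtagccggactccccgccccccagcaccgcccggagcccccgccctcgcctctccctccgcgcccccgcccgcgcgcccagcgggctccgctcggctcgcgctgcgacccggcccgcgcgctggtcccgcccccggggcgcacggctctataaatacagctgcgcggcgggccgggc
The follistatin promoter held 1 TGANTCA, the FSTL3 promoter 1 GGCGCC, and the ID3 and ID4 promoters 1 CAGAC each, so the motifs did not separate the ID gene that rose from the one that fell. None of the 3 motifs was found in the windows of TGFB1 and BMP6. Of the measured members, 43 matched the table with 84 promoters, some of them overlapping starts of the same gene. Searched on both strands, CAGAC was in 39.3% of these promoters, against 38.0% of all 35116 promoters. GGCGCC was in 23.8%, against 16.4% of all, and TGANTCA in 5.95%, against 6.57% of all. The motifs do not overlap each other in the runs shown, and a match is a run of letters, not a measured binding site.

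Among the ligands, the TGF-beta isoforms rose together and the BMPs split. TGFB1, the most widely expressed isoform, stood at 9.70, 9.86 and 9.45 on the H69M arrays and at 5.89, 5.89 and 5.83 on the H69 arrays. Its lowest H69M array was far above its highest H69 array. The difference of 3.80 ± 0.10 in log2 (SE), or 13.9-fold, had a limma adjusted p = 1.67e-07. TGFB1's H69 level is not known to be above background, so this rise may be a lower bound. TGFB3, an isoform prominent in development and wound repair, had 8.21, 8.12 and 8.03 in H69M and 6.26, 6.35 and 6.07 in H69, a 3.70-fold rise (limma adjusted p = 1.79e-06). TGFB2 moved least of the isoforms. It had 10.79, 10.91 and 10.90 in H69M and 10.35, 10.33 and 10.20 in H69, 1.49-fold higher without overlap (limma adjusted p = 0.00028).

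Activin subunit genes went in different directions. INHBA, which encodes the subunit of activin A, had 8.57, 8.59 and 8.08 in H69M and 6.88, 6.95 and 6.89 in H69. The third H69M array was the lowest of its line but still above every H69 array, and the rise was 2.84-fold (limma adjusted p = 5.36e-05). INHBE, the subunit of activin E, best known as a liver product, had 6.79, 6.42 and 6.31 in H69M against 7.66, 7.66 and 7.54 in H69. It fell by 1.12 ± 0.12 in log2 (SE), with a limma adjusted p = 0.000161. INHBB, the subunit of activin B, averaged 7.84 ± 0.063 in H69M and 7.85 ± 0.074 in H69 (SD, n = 3 each), with overlapping arrays and a 95% interval of the difference from -0.17 to 0.13. GDF11, an activin-like ligand that patterns the axial skeleton, also overlapped, at 7.75 ± 0.12 in H69M and 7.72 ± 0.049 in H69 (SD, n = 3 each).

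Of the BMP ligands, BMP4 and BMP5 rose while BMP6 and BMP7 fell. BMP4, a morphogen of lung budding among other tissues, had 8.49, 8.57 and 8.57 in H69M and 7.16, 7.21 and 6.99 in H69, a 2.69-fold rise (limma adjusted p = 3.29e-06). BMP5, a ligand of the same family that acts in skeletal development, had 6.54, 6.46 and 6.56 in H69M against 4.92, 4.46 and 4.83 in H69. All H69M arrays were above all H69 arrays, and the measured rise of 3.44-fold (limma adjusted p = 1.05e-05) may be a lower bound, since its H69 level is not known to be above background. BMP6, known as a regulator of hepcidin and iron, had 7.76, 7.51 and 7.21 in H69M and 8.67, 8.80 and 8.72 in H69. All H69M arrays were below all H69 arrays, and the fall was 2.35-fold (limma adjusted p = 0.000138). BMP7, a kidney and epithelial morphogen that opposes TGF-beta in several epithelial models, had the largest fall of all members. Its values were 6.75, 6.63 and 6.53 in H69M and 8.26, 8.45 and 8.13 in H69, 3.12-fold lower in H69M (limma adjusted p = 6.32e-06). BMP2, a bone-inducing ligand closely related to BMP4, did not pass, at 7.85 ± 0.096 in H69M and 7.92 ± 0.084 in H69 (SD, n = 3 each).

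**Figure D3:**
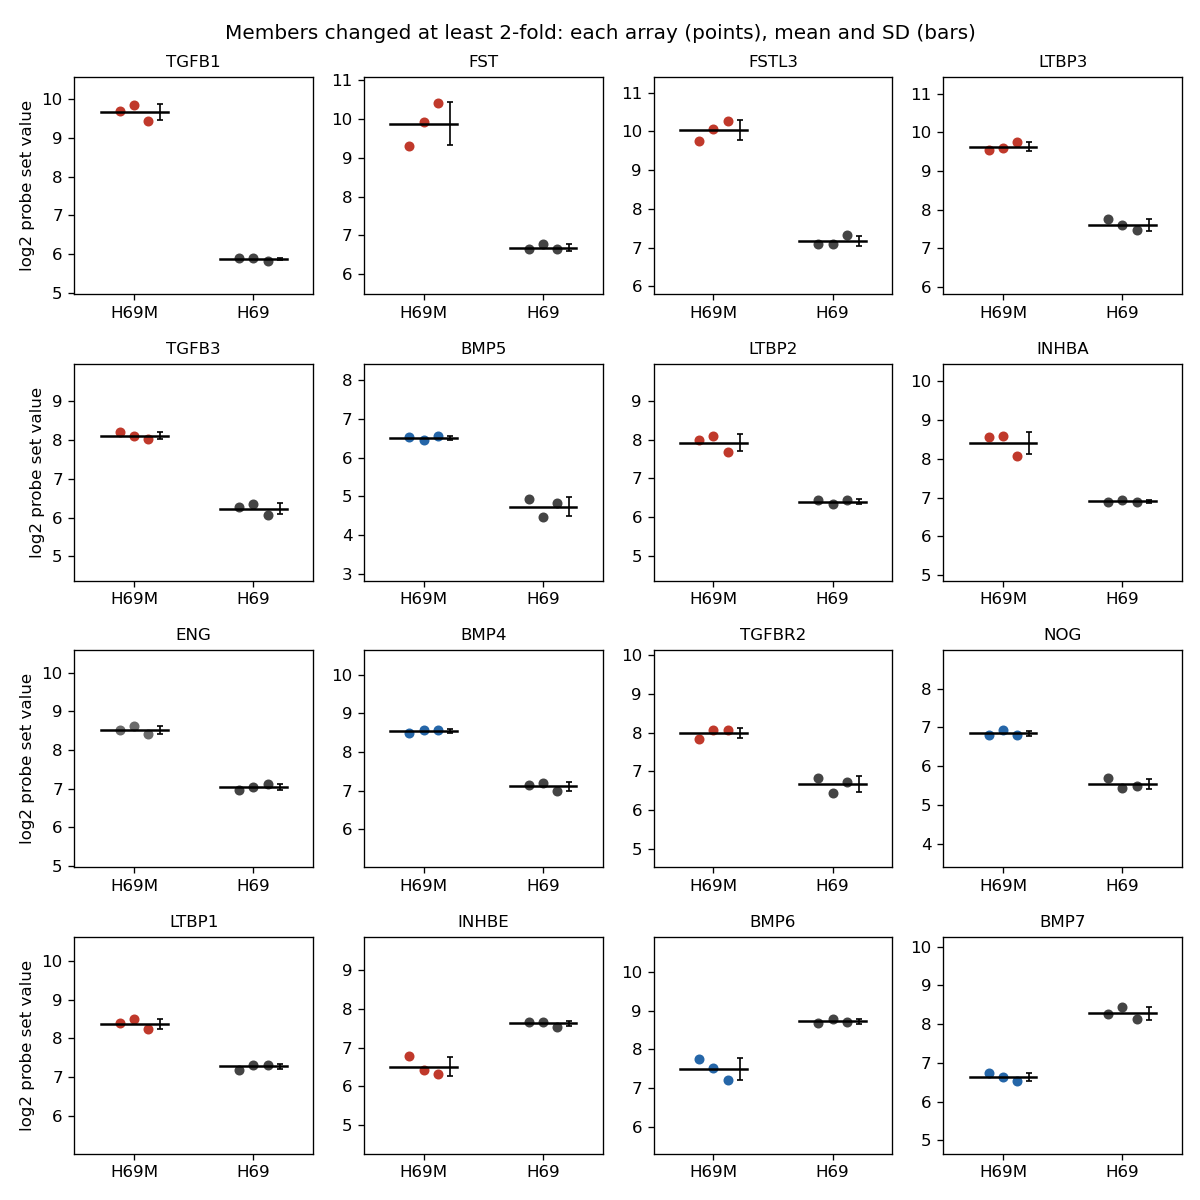
Log2 probe set values (y axis, of the same span in every panel) of the 16 members that passed and differed at least 2-fold, with each array as a point, H69M left of H69, and the mean and SD (n = 3) as bars. In all 16 panels the lines do not overlap, which the choice of members by size and threshold makes likely. Over all genes 55.8% did not overlap in either direction. FST has the widest H69M spread, from 9.31 to 10.41, and INHBE, BMP6 and BMP7 are the panels in which H69M is the lower line.

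Of the 11 receptor and co-receptor genes, 5 were higher and 4 lower in H69M, and 2 of them differed at least 2-fold. Of the 12 ligand genes, 6 were higher and 3 lower, and 8 differed at least 2-fold; the difference between the groups was not tested. TGFBR2, the type II receptor that binds TGF-beta and activates the type I receptor, had 7.84, 8.07 and 8.08 in H69M and 6.82, 6.43 and 6.73 in H69. Every H69M array was above every H69 array, and the rise was 2.52-fold (limma adjusted p = 4.91e-05). TGFBR1, the TGF-beta type I kinase, was higher by 0.14 ± 0.068 in log2 (SE), with no overlap of the arrays but a limma adjusted p = 0.138. The co-receptor genes rose. ENG, which encodes endoglin, an accessory receptor abundant in endothelium and mesenchymal cells, had 8.51, 8.62 and 8.40 in H69M and 6.97, 7.04 and 7.12 in H69, 2.77-fold higher (limma adjusted p = 3.33e-06). Beside it, of the 8 endothelial markers, KDR and EMCN were higher in H69M by 0.39 and 0.44 in log2 and CLDN5 fell by 0.53. KDR averaged only 4.89 in H69M and 4.50 in H69, and EMCN 3.69 and 3.25. These levels are not known to be above background. PECAM1, CDH5, VWF, TIE1 and ERG did not pass, with log2 fold changes from -0.14 to 0.33, and the part of endothelial genes in the ENG result was not tested. TGFBR3, betaglycan, which presents TGF-beta2 to its receptors, was 1.47-fold higher at 6.66 ± 0.20 in H69M and 6.10 ± 0.088 in H69 (SD, n = 3 each, limma adjusted p = 0.00309).

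Activin and BMP receptor genes moved in both directions. ACVR1, a BMP type I receptor also called ALK2, had 7.79, 7.92 and 7.87 in H69M and 6.91, 6.89 and 6.86 in H69, 1.97-fold higher (limma adjusted p = 8.03e-06). BMPR2, the BMP type II receptor, averaged 10.49 ± 0.10 in H69M and 9.81 ± 0.073 in H69, a 1.60-fold rise (SD, n = 3 each, limma adjusted p = 0.000177). The other BMP type I receptor genes that were measured, BMPR1B and ACVRL1, went down, while BMPR1A was not analysed. BMPR1B had 5.73, 5.49 and 5.62 in H69M against 6.49, 6.45 and 6.22 in H69, and ACVRL1, the endothelial receptor ALK1, had 5.95, 5.84 and 6.04 against 6.53, 6.34 and 6.55. Their log2 fold changes were -0.77 and -0.53, with limma adjusted p = 0.000309 and 0.00115. Their H69M levels are not known to be above background, so these falls may be lower bounds. ACVR1B, an activin type I receptor, fell by 0.46 ± 0.081 in log2 (SE, limma adjusted p = 0.00239). The receptor gene ACVR1C, from the further genes described below, did not pass (-0.018 in log2, limma adjusted p = 0.886). The type II activin receptors changed little. ACVR2B was lower by a log2 difference of -0.21 with a limma adjusted p = 0.0403, a call that was lost under 5 of its 15 alternatives, among them without H69 replicate 2 (limma adjusted p = 0.128). ACVR2A had -0.12 with overlapping arrays (limma adjusted p = 0.262).

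In the SMAD group the largest change was a rise of SMAD3, and 4 of the 8 genes were lower in H69M, beside 23.2% of all genes. SMAD3, which binds DNA in response to TGF-beta and activin, had 8.84, 8.85 and 8.92 in H69M and 8.04, 7.96 and 7.81 in H69, 1.91-fold higher (limma adjusted p = 3.03e-05). Its partner SMAD2 had 9.52, 9.51 and 9.52 in H69M against 9.88, 9.93 and 9.85 in H69, a log2 fold change of -0.37 (limma adjusted p = 0.000842). The pair that serves TGF-beta and activin therefore moved in opposite directions. A dimmer SMAD2 probe set also fell, with a log2 fold change of -0.77. SMAD4, the common partner, had 11.36, 11.26 and 11.27 in H69M and 11.78, 11.85 and 11.76 in H69, 1.42-fold lower (limma adjusted p = 0.000279).

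The SMADs of the BMP branch were lower or nearly level. SMAD9 had 9.92, 9.72 and 9.65 in H69M against 10.26, 10.22 and 10.22 in H69 and fell by 0.46 in log2 (limma adjusted p = 0.00186). SMAD1 had a log2 fold change of -0.25 and SMAD5 of 0.16, with limma adjusted p = 0.0221 and 0.0492. Both calls were weak. That of SMAD1 was lost without H69 replicate 1 (limma adjusted p = 0.0789), without H69 replicate 3 (0.0602), without H69M replicate 1 (0.0589) and without H69M replicate 3 (0.0681). That of SMAD5 was lost without any array in turn (limma adjusted p = 0.0733 to 0.126). The inhibitory SMADs, which are induced by the pathway and act back on it, did not pass in the main comparison. SMAD7, the inhibitor of both branches, had 7.58, 7.48 and 7.52 in H69M and 7.46, 7.48 and 7.48 in H69, with overlapping arrays and a 95% interval from -0.08 to 0.18. SMAD6, the inhibitor that prefers the BMP branch, was at 8.38 ± 0.012 in H69M and 8.23 ± 0.063 in H69 (SD, n = 3 each, limma adjusted p = 0.0872). All its H69M arrays lay above all H69 arrays. It passed with arrays centred on their medians (limma adjusted p = 0.0447) and with genes below the median level dropped (limma adjusted p = 0.0399). With genes below the 25th percentile dropped it did not pass (limma adjusted p = 0.0590).

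Of the 3 nuclear co-repressor genes, 2 were higher in H69M and 0 lower, beside 21.0% and 23.2% of all genes. TGIF1, a homeodomain protein that recruits repressors to SMAD2 and SMAD3, had 10.23, 10.32 and 10.23 in H69M against 9.38, 9.42 and 9.17 in H69, 1.92-fold higher (limma adjusted p = 4.14e-05). Its size depended on the probe set: the 5 TGIF1 probe sets had log2 fold changes from 0.39 to 0.94, and 3 of them passed in a limma fit over all probe sets (adjusted p = 0.0608 and 0.0681 for those that did not). SKIL, which encodes SnoN, a SMAD repressor and a TGF-beta target itself, had 8.67, 8.80 and 8.70 in H69M and 8.22, 8.25 and 8.32 in H69, 1.38-fold higher (limma adjusted p = 0.000568). SKI, its relative, had a log2 difference of 0.13 ± 0.056 (SE) with a limma adjusted p = 0.0924. It passed only under eBayes with trend (limma adjusted p = 0.0495) and with genes below the median level dropped (limma adjusted p = 0.0418).

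All 4 latent TGF-beta binding protein genes were higher in H69M, beside 21.0% of all genes. These matrix proteins hold the latent ligand, except LTBP2, which does not bind it and serves elastic fibres. LTBP3 rose most, with 9.54, 9.60 and 9.75 in H69M and 7.77, 7.61 and 7.47 in H69, a 4.04-fold difference (limma adjusted p = 1.86e-06). LTBP2 had 7.98, 8.09 and 7.68 in H69M against 6.43, 6.32 and 6.44 in H69, 2.87-fold higher (limma adjusted p = 1.48e-05). LTBP1 had 8.39, 8.49 and 8.25 in H69M against 7.19, 7.32 and 7.31 in H69, 2.14-fold higher (limma adjusted p = 1.71e-05). LTBP4, the least changed, had 7.48, 7.52 and 7.38 in H69M and 6.73, 6.89 and 6.51 in H69, 1.69-fold higher (limma adjusted p = 0.000486). None of the 4 genes overlapped between the lines, which was so for 55.8% of all genes in either direction.

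The activin antagonists had the largest rises after TGFB1. FST encodes follistatin, a secreted protein that binds activin and blocks its receptor contact. It had 9.31, 9.92 and 10.41 in H69M and 6.64, 6.77 and 6.64 in H69, a 9.18-fold rise (limma adjusted p = 2.17e-05). The H69M arrays were spread over more than 1 log2 unit, but the lowest was far above H69, and the log2 fold change was 2.93 to 3.48 when any array was left out. FSTL3, a follistatin-like protein with the same ligands, had 9.76, 10.06 and 10.27 in H69M and 7.10, 7.09 and 7.33 in H69, 7.24-fold higher (limma adjusted p = 1.72e-06). In both genes H69M replicate 1 was the lowest array of its line and replicate 3 the highest.

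Of the BMP antagonist genes, NOG and GREM1 rose and CHRD did not pass. NOG, noggin, which sequesters BMP ligands, had 6.81, 6.93 and 6.81 in H69M against 5.70, 5.45 and 5.48 in H69, 2.48-fold higher (limma adjusted p = 9.37e-06). This rise may be a lower bound, since the H69 level of NOG is not known to be above background. GREM1, gremlin, a secreted antagonist of BMP2 and BMP4, had 10.19, 10.26 and 10.12 in H69M and 9.79, 9.71 and 9.65 in H69, 1.38-fold higher (limma adjusted p = 0.000731). CHRD, chordin, did not pass, at 6.35, 5.83 and 6.08 in H69M and 6.31, 6.42 and 6.33 in H69. Without H69M replicate 1, the only H69M array among the H69 values, its log2 fold change was -0.40 (limma adjusted p = 0.0107). BAMBI, a decoy receptor of both branches, overlapped between the lines at 9.29 ± 0.13 in H69M and 9.20 ± 0.10 in H69 (SD, n = 3 each, limma adjusted p = 0.446). PMEPA1, a TGF-beta-induced membrane protein that limits SMAD2 and SMAD3 signalling, had 8.49, 8.40 and 8.05 in H69M and 8.13, 8.11 and 8.09 in H69. H69M replicate 3 lay below all H69 arrays, and without it PMEPA1 was higher by 0.34 in log2 (limma adjusted p = 0.00616, against 0.17 with all arrays).

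The ID genes divided. ID1 had 11.01, 11.03 and 10.96 in H69M and 10.41, 10.53 and 10.46 in H69, 1.45-fold higher (limma adjusted p = 0.000198). ID3 had 10.06, 10.09 and 9.80 in H69M and 9.44, 9.49 and 9.45 in H69, 1.44-fold higher (limma adjusted p = 0.00149). ID4 went the other way, with 8.06, 7.96 and 8.02 in H69M and 8.51, 8.67 and 8.54 in H69, 1.47-fold lower in H69M (limma adjusted p = 0.000304). None of these 3 genes overlapped between the lines, which was so for 55.8% of all genes in either direction. ID2 lay below H69 on every H69M array, at 9.53, 9.71 and 9.12 against 9.77, 9.80 and 9.73, but its log2 fold change of -0.31 did not pass (limma adjusted p = 0.102). Without H69M replicate 2 the value was -0.44 with a limma adjusted p = 0.0276.

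Genes around the members were read from lists of pathway components and target genes, 114 measured genes in all. Of these, 51 were higher in H69M (44.7%) and 17 lower (14.9%), beside 21.0% and 23.2% of all genes. Further ligands moved little: of 20, 2 rose, GDF6 (0.83 in log2) and GDF5 (0.29), which are joint morphogens, and 2 fell, the stress-induced GDF15 (-0.95) and the nodal inhibitor LEFTY1 (-0.32). Among 7 further receptors and co-receptors, CD109, a membrane protein that binds TGF-beta and dampens its signalling, had 9.30, 9.63 and 9.50 in H69M against 3.80, 3.70 and 3.61 in H69. The measured log2 rise was 5.77 ± 0.095 (SE, limma adjusted p = 1.6e-08). Its H69 values lay near the 3.82 and 3.97 of the ligand genes BMP15 and BMP10 in H69, named after their values were seen, so the rise may be a lower bound. The co-receptor NRP1 rose by 1.13. The BMP co-receptor RGMB fell by 1.08. Of 13 further genes listed as antagonists, 4 rose and 3 fell. Whether each listed product, those of FSTL4 and FSTL5 included, blocks a superfamily ligand was not tested. FSTL1 (6.01), CRIM1, a transmembrane BMP-binding protein (4.42), and TWSG1, a chordin partner (0.74), were higher. FSTL4 (-1.50), FSTL5 (-1.47) and DAND5 (-0.64) were lower. FSTL1 and CRIM1 averaged 5.09 and 5.88 in H69, levels not known to be above background, so their rises may be lower bounds.

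Genes that store, process and release latent TGF-beta were mostly higher in H69M, with 10 of 16 higher and 1 lower. Over all genes, 21.0% were higher and 23.2% lower. The median log2 fold change of these 16 genes was 0.95. The fibrillin genes FBN1 and FBN2, whose microfibrils anchor the latent-binding proteins, rose by 6.13 and 5.18, and THBS1, thrombospondin, an activator of latent TGF-beta, by 4.54. FBN1 averaged 10.45 in H69M and 4.32 in H69, a level not known to be above background, so its difference may be a lower bound. The same holds for FBN2 (5.30 in H69). It also holds for ITGB5 (5.61 in H69), ITGB6 (4.51), PCSK5 (5.31), RUNX2 (5.19) and ZEB2 (5.09), named below. THBS1 had 11.26, 11.43 and 11.59 in H69M against 6.85, 6.93 and 6.87 in H69 (limma adjusted p = 3.48e-08). Chosen after their values were seen, the integrin genes ITGB5 (3.71), ITGB6 (3.14) and ITGAV (1.58), whose products release the ligand by pulling on the latent complex, rose, as did the protease genes FURIN (0.80), PCSK5 (1.82) and BMP1 (1.10), while the protease genes TLL1 (0.15) and TLL2 (-0.0014) did not pass. ITGB8, another integrin gene chosen in the same way, did not pass (-0.11), and the convertase gene PCSK6 fell by 0.61. LRRC32 and NRROS, cell-surface holders of latent TGF-beta chosen likewise, did not pass, with log2 fold changes of 0.034 and -0.075. Of 28 regulators of SMADs, 14 rose and 4 fell. RUNX2 (3.18), ZEB2 (2.68) and ZEB1 (2.05), transcription factors that bind SMADs, rose most, and LEMD3 (-0.47), PPM1A (-0.39) and TGFBRAP1 (-0.33) fell. Named after their values were seen, SMURF1 and SMURF2, ubiquitin ligases that remove SMADs and receptors, were higher by 1.28 and 1.08.

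Textbook target genes of TGF-beta and of BMP were counted separately, without a test of the difference between the lists. Outside the members, 16 of 20 measured TGF-beta targets were higher in H69M and 1 was lower, with a median log2 fold change of 1.87. Over all genes, 21.0% were higher and 23.2% lower. TGFBI, a secreted matrix protein named for its induction by TGF-beta, had 11.33, 11.42 and 11.13 in H69M and 5.44, 5.30 and 4.87 in H69. CCN2, connective tissue growth factor, had 11.60, 11.83 and 12.33 in H69M and 5.98, 6.38 and 5.83 in H69. The H69 levels of TGFBI and CCN2 are not known to be above background, so their rises may be lower bounds. The collagen gene COL1A1 was higher by 4.83 ± 0.097 in log2 (SE), and BHLHE40, a transcription factor gene, was lower by a difference of -0.65. Several of these targets also respond to other pathways, and COL1A1 is in the fibroblast marker list, 8 of whose 11 genes were higher in H69M. THBS1 is counted both here and among the genes that store, process and release latent TGF-beta, so those lists are not separate. The 3 targets that did not pass, named after their values were seen, were JUNB (-0.10), ANGPTL4 (0.14) and SNAI2 (0.22).

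Outside the members, 4 of 11 BMP targets were higher and 5 lower, beside 21.0% and 23.2% of all genes, with a median log2 fold change of -0.13. The homeobox genes MSX2 and DLX5 were at 7.32, 7.55 and 6.97 and at 10.86, 10.54 and 10.64 in H69M, against 8.75, 8.72 and 8.84 and 11.54, 11.49 and 11.47 in H69. They fell by 1.49 and 0.82 in log2, with limma adjusted p = 6.53e-05 and 0.000144, and HEY1, a target shared with Notch, fell by 0.90. The signalling regulator gene RGS4 rose by 1.05 and the heart factor gene TBX20 by 0.77. The homeobox gene MSX1 rose by 0.45, against the direction of its relative MSX2.

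**Figure D4:**
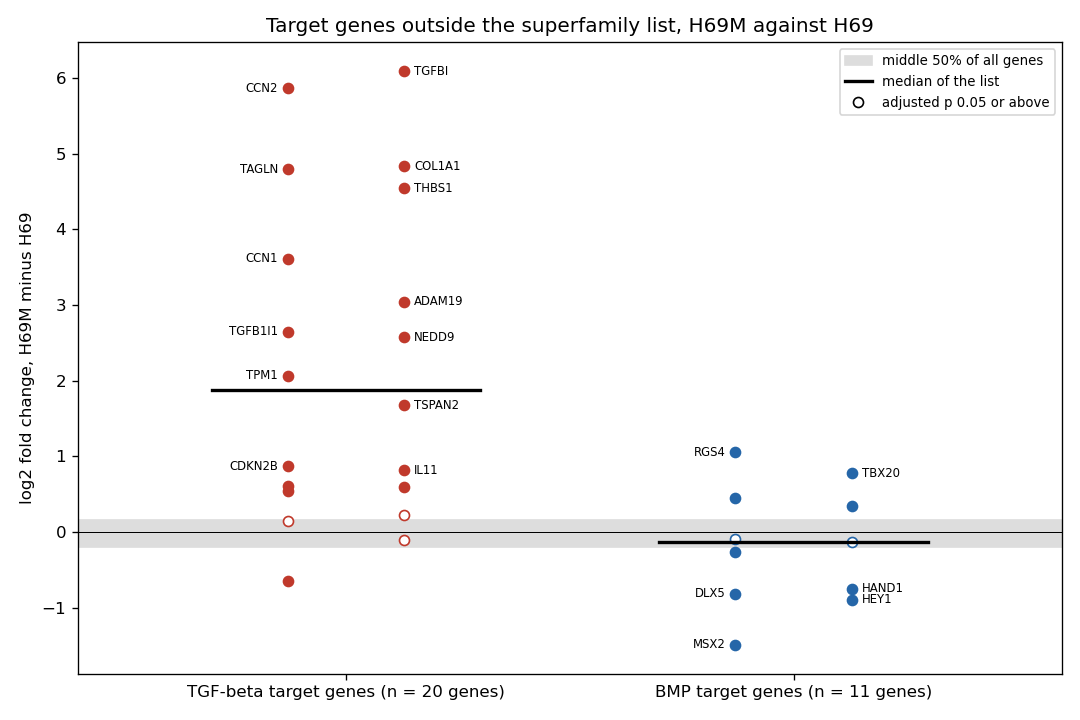
Log2 fold change (H69M minus H69, y axis) of textbook target genes outside the member list, 20 of TGF-beta and 11 of BMP; bars are medians (1.87 and -0.13), open points did not pass and the grey band is the interquartile range of all genes. TGF-beta targets reach 6.09 (TGFBI), whereas BMP targets lie between -1.49 (MSX2) and 1.05 (RGS4).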

How the data were processed

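Each array column held log2 probe set values as the authors deposited them. RMA and limma are named, without versions, per the submitters' processing notes, and RNA was column-extracted, amplified and biotin-labelled per the labels' protocols. The program that ran RMA, and any genome build, were not given in the sources used here. The deposited values entered the main comparison unaltered.

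Of 32321 probe sets on 6 arrays, 19158 had 1 gene symbol in the platform annotation, 1388 had several and 11775 were not listed; 19128 matched the RefSeq gene table (GRCh38.p14) and 0 symbols changed. For genes with several probe sets (637 of 18404), the one with the highest mean was used. H69M was compared with H69 with lmFit and eBayes of limma 3.58.1 (R 4.3.3), two-sided, with a single term for line. Benjamini-Hochberg adjustment covered all 18404 genes (threshold 0.05), and the code was tested on simulated data. An exact permutation of 3 against 3 arrays cannot go below 0.1 and was not used. Python 3.11.15 made tables and plots.

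The members and lists were chosen with earlier results of these data known. Every member is named, with all arrays given for those at least 2-fold changed. From each other list the 3 largest rises and falls that passed are named, with TGFBI and CCN2. Genes were assigned to branches by hand, by the ligands or SMADs they act with; the latent-binding proteins, LTBP2 included, went with TGF-beta as a family. Alternatives were the replicate block, array centring, repeated quantile normalization, level filters, weighted arrays, robust eBayes, eBayes with trend, other probe set rules and each array left out. The number of arrays limits precision; the median standard error was 0.075 in log2.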

Additional observations from a re-analysis of the deposited data

Results flagged for a closer look

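Of the TGIF1 probe sets that the comparison did not use, 2 were also higher in H69M, fitted with limma over all probe sets. Probe set 8180316 differed by 0.90 in log2 (adjusted p = 0.00768) and probe set 8019939 by 0.46 (adjusted p = 0.012), against 0.94 for the one used. They were singled out because they carry signal outside the main measurement.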

How the results depend on the processing

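Of 774 recomputed member values, 744 kept their direction and side of the threshold, 16 lost the call, 8 gained it and 6 changed sign. Of the 37 called members, 34 kept the call under every alternative that could be run for them; ACVR2B, SMAD1 and SMAD5 did not. The sign changes were in INHBB and GDF11, which did not pass: INHBB had 0.012 with arrays centred on their medians and -0.054 to 0.025 with each array left out, and GDF11 had -0.015 to 0.096 with each array left out (0.025 and 0.0048 for INHBB without H69 replicate 3 and H69M replicate 3, -0.00042, -0.0057 and -0.015 for GDF11 without H69 replicate 3, H69M replicate 1 and H69M replicate 2). Same-numbered arrays showed little shared deviation over all genes (correlation of deviations from the group means 0.0072 to 0.021). Whether same-numbered arrays were handled together is not given in the labels and was not tested. With the replicate number as a block, members called were 24 higher and 11 lower, and 7638 genes passed; the block changed the member calls of ACVR2B and SMAD5 only. The median of the TGF-beta and activin branch was 0.93 when genes below the median level were dropped, 0.66 with the lowest-mean probe set, 0.73 with the mean of the probe sets and 0.76 to 0.89 with each array left out. That of the BMP branch was 0.14 when genes below the median level were dropped and 0.0020 to 0.060 with each array left out. With the core members only, chosen after seeing the data, the medians were 0.36 and -0.16, and 6 and 5 genes were called higher; fewer genes are counted there. The level filters left out 0 members below the 25th percentile and 10 below the median. The SMAD2 and TGIF1 differences were -0.77 and 0.46 with the lowest-mean probe set. The member counts over all alternatives were 22 to 26 higher and 8 to 13 lower; the lowest of both came when genes below the median level were dropped.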
